A study of Mus musculus with 4 samples.

Results

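The myeloid chemokine ligands described here are 10 genes, Ccl2, Ccl3, Ccl4, Ccl6, Ccl9, Ccl17, Ccl22, Ccl24, Cxcl2 and Cxcl16, taken by their symbols from the 24346 genes listed for each library. All 10 were listed, and 9 passed the filter on low values and were tested, Ccl24 being the exception. RNA was sequenced from in vitro MDSCs, the suppressive immature myeloid cells that bone marrow yields under GM-CSF, in 4 libraries. The 2 Control libraries came from C57BL/6J bone marrow cells kept for 4 days in GM-CSF at 40 ng/ml, and the 2 G-CSF libraries from the same culture with G-CSF at 5 ng/ml added. The comparison asked which transcripts differed when G-CSF was added. The mice of the study were young adult females, and how many animals gave the marrow of each library was not given in the sources used here. The cultures were whole and unsorted, so a level is an average over every cell type that grew. Levels are FPKM, that is, reads per unit of transcript length and per unit of sequencing depth, and the libraries held an estimated 13.4 M and 14.15 M mapped reads in Control and 12.45 M and 15.6 M in G-CSF.

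Chemokines are small secreted proteins that bind G protein-coupled receptors and steer leukocytes along gradients. CC ligands mostly attract monocytes, lymphocytes and dendritic cells, and CXC ligands such as Cxcl2 attract neutrophils. Inflammatory ligands are induced by danger signals, often through NF-kB, whereas Ccl17 and Ccl22 are made in quantity by dendritic cells and by macrophages exposed to IL-4 or GM-CSF.

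The labelled cell type was first checked against marker lists. Among neutrophil markers, 9 of 10 were listed (no row carried the symbol Ly6g), and their summed level was 76958 and 66575 FPKM in Control and 51501 and 51592 FPKM in G-CSF, with S100a8 the most abundant. Camp, Ltf and Retnlg, which encode late granule and secreted proteins of maturing neutrophils, fell past both thresholds described below, which 1.42% of all genes tested passed, and 7 of the 9 were lower at an adjusted p under 0.05, against 11.6% of all genes tested. The monocyte markers summed to 2211 and 2289 FPKM in Control and 1944 and 1998 FPKM in G-CSF, with Ly6c2 the most abundant. Of the 9 monocyte markers tested, Csf1r and Ctss were lower and F13a1 was higher at an adjusted p under 0.05, where 1381 of 11940 genes were lower and 1521 higher. Markers of both lineages in MDSCs, granulocytic and monocytic, were thus detected in every library. One extraction note names liver, but 5 of 7 hepatocyte markers (Alb, Apoa1, Ttr, Fgb and Ahsg) were listed at 0 in all 4 libraries, the most abundant was Apoa2, and the list summed to between 0.805 and 1.51 FPKM.

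Ccl6, a CC ligand of Ccr1 made constitutively by myeloid cells, was the most abundant of the 10 ligands. Its level was 3981 and 3594 FPKM in Control and 3168 and 3074 FPKM in G-CSF, which placed it at rank 13 of the 11940 genes tested. It gave between 71.8% and 78.7% of the summed FPKM of the 10 ligands, a sum that was 5547, 4839, 4215 and 3906 FPKM in the 2 Control and then the 2 G-CSF libraries, or 0.828%, 0.754%, 0.656% and 0.606% of all FPKM. In Control the mean levels then descended through Ccl17, Ccl22, Ccl9, Ccl3, Ccl4, Ccl2, Cxcl2 and Cxcl16. Within that order the Control libraries of Ccl9 and Ccl3 overlapped, as did those of Ccl4 and Ccl2 and those of Cxcl2 and Cxcl16. The order of the means was the same in G-CSF, where the libraries overlapped between Ccl17 and Ccl22 and between Cxcl2 and Cxcl16. Ccl24, an eosinophil attractant acting on Ccr3, was listed at 0 and 0.326 FPKM in Control and at 0.371 and 0.296 FPKM in G-CSF, at most about 5 estimated reads, so a difference was not detectable at this depth.

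**Figure D1:**
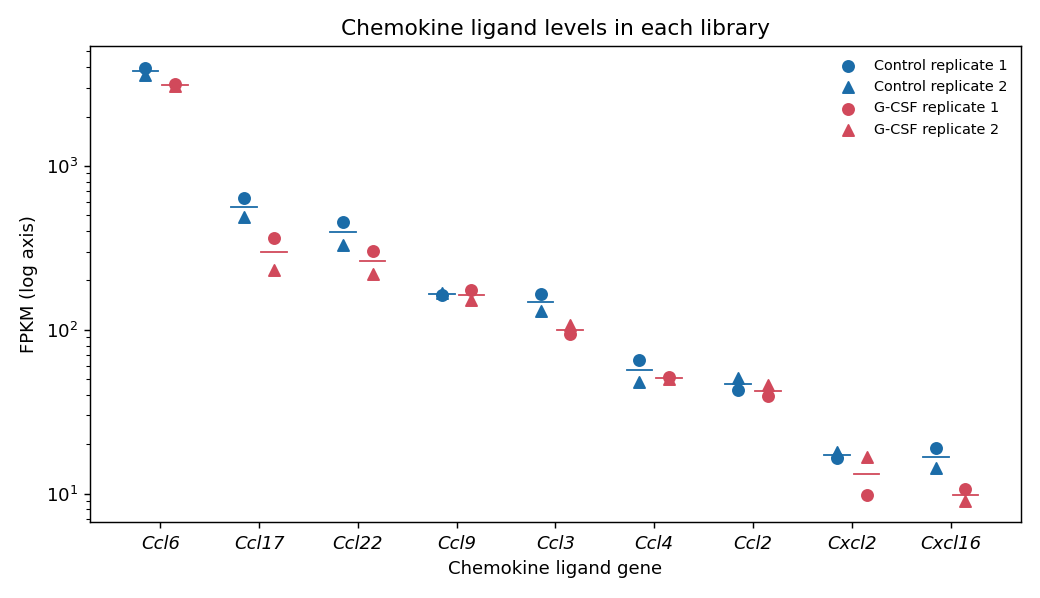
FPKM on a log axis for the 9 tested chemokine ligands in each library (blue, Control; red, G-CSF; circles, replicate 1; triangles, replicate 2; short lines, group means). Ccl6 lay above the other ligands in every library, and the red points of Ccl6, Ccl17, Ccl22, Ccl3 and Cxcl16 all lay below the blue points of the same gene.

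Across the whole table, 170 of 11940 genes (1.42%) passed both thresholds between G-CSF and Control, a Benjamini-Hochberg adjusted p under 0.05 by limma together with a log2 fold change beyond 1 in either direction, and 0 of the 9 ligands tested did. With a pseudocount of 1 FPKM 56 genes did, and again 0 of the 9 ligands. At an unadjusted p under 0.05 the same limma fit counted 5 of the 9 ligands and 4669 of all genes tested. By the adjusted p alone, 4 of the 9 (Ccl3, Ccl6, Ccl17 and Cxcl16) were lower in G-CSF, against 11.6% of all genes tested, and none was higher. For 5 of the 9, those 4 and Ccl22, both G-CSF libraries lay below both Control libraries, against 32.6% of all genes tested. The median log2 fold change of the 9 was -0.41, that of all genes tested was 0.0013, and the 9 fold changes were below 0 with all 4 libraries, as were 5950 of 11940, although those of Ccl4 and Ccl9 turned when 1 library was left out. With no filter on low values, which raised the number of genes tested to 16234, none of the 4 kept an adjusted p under 0.05 by limma. The values were 0.0549 for Cxcl16, 0.0666 for Ccl3, 0.0806 for Ccl17 and 0.125 for Ccl6. The fold changes of these 4 were the same as with the filter. Over all genes, 1626 of 16234 passed the adjusted p with no filter, against 2902 of 11940 with it. In these bulk cultures fewer cells of a type and less RNA per cell cannot be told apart.

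**Figure D2:**
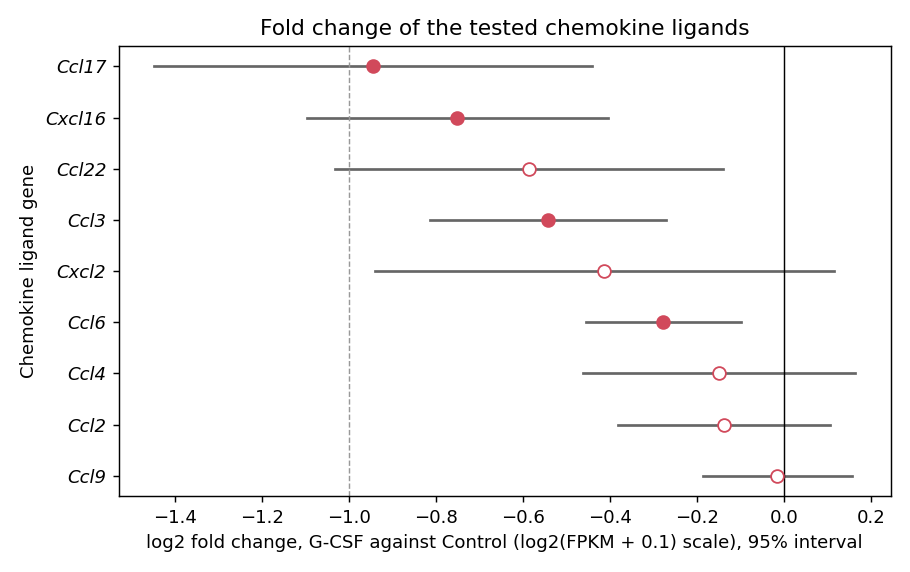
Log2 fold change of G-CSF against Control with its 95% confidence interval for the 9 tested ligands, on the log2(FPKM + 0.1) scale (filled points, adjusted p under 0.05 by limma; dashed line, log2 fold change of -1). Ccl17 had the lowest value, -0.94, and Ccl9 lay nearest 0 at -0.015.

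Ccl17, a ligand of Ccr4 that attracts helper and regulatory T cells, had the fold change farthest from 0. Its level was 640.4 and 488 FPKM in Control and 362 and 233 FPKM in G-CSF. Both G-CSF libraries lay below both Control libraries, and the lowest was G-CSF replicate 2. The Control mean was 564 ± 107 FPKM and the G-CSF mean 298 ± 91.6 FPKM (SD, n = 2 each). Ccl17 fell by 0.94 on the log2 scale (SE 0.21, 95% interval -1.45 to -0.44, limma, Benjamini-Hochberg adjusted p = 0.0229), so the level in G-CSF was 52.0% of that in Control. The interval reached past a log2 fold change of -1 on one side and stopped short of 0 on the other. Without Control replicate 1 the adjusted p was 0.0529, and over the 4 fits that each left out a library it ran from 0.00614 to 0.0529, with log2 fold changes from -1.26 to -0.63, the latter without G-CSF replicate 2. Without Control replicate 2 or without G-CSF replicate 1, Ccl17 passed both thresholds (log2 fold change -1.14 and -1.26).

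Ccl22, the other Ccr4 ligand, was at 456 and 329 FPKM in Control and at 303 and 220.1 FPKM in G-CSF. The groups did not overlap, although Control replicate 2 and G-CSF replicate 1 lay close together. Its log2 fold change was -0.59 (SE 0.19, 95% interval -1.03 to -0.14), and it did not pass the test (limma, Benjamini-Hochberg adjusted p = 0.0636). Leaving out Control replicate 2 gave an adjusted p of 0.0166 and leaving out G-CSF replicate 1 gave 0.0259, within a range of 0.0166 to 0.184 over the 4 fits, and the log2 fold changes there ran from -0.82 to -0.35. Both fits without Control replicate 1 or without G-CSF replicate 2 gave -0.35, with adjusted p of 0.173 and 0.184. The ratio of Ccl17 to Ccl22 in FPKM was 1.40 and 1.48 in Control and 1.20 and 1.06 in G-CSF, a description for which no test was run. In estimated reads Ccl17 was the lower, at 1105 to 2609 against 6889 to 12264.5 for Ccl22. Their transcripts are 514 and 2216 bases long, so the ratio depends on how FPKM corrects for length in short transcripts.

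These 2 genes are neighbours. In the mm10 build (GRCm38, GENCODE M21), Ccl22 occupies chr8:94745590-94751699 and Ccl17 chr8:94810453-94812036, both on the plus strand and 58753 bases apart, and Cx3cl1 at chr8:94772009-94782427 is the only other protein-coding gene between them. Cx3cl1, a membrane-bound ligand that attracts patrolling monocytes through Cx3cr1, was at 4.90 and 3.89 FPKM in Control and at 3.67 and 2.77 FPKM in G-CSF. Its groups did not overlap either, but the test was not passed at a log2 fold change of -0.44 (limma, Benjamini-Hochberg adjusted p = 0.116).

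RefSeq promoter entries (GRCm38.p6) were matched for 6 of the 10 ligands, Ccl3, Ccl6, Ccl9, Ccl17, Ccl22 and Cxcl2, and the 250 bases before each start were searched on both strands for letters resembling the binding sites of factors that act on chemokine genes. For NF-kB the letters were GGGNNTTTCC, found in 1.41% of 32851 promoter entries, for STAT6 TTCNNNNGAA, found in 5.85%, and for STAT5 TTCNNNGAA, found in 7.02%. Ccl17 held 1 match to the STAT6 letters and 1 to the STAT5 letters, which did not overlap each other, and Ccl22 held none of the 3. Cxcl2 held 2 matches to the NF-kB letters and Ccl9 held 1, and no match to any of the 3 was in the windows of Ccl3 and Ccl6. The sequences upstream of the neighbouring pair are shown because the libraries ordered both genes alike, with capitals marking the STAT6 and then the STAT5 letters in Ccl17. The Ccl17 stretch is chr8:94810203-94810452 and the Ccl22 stretch is chr8:94745434-94745589, both on the plus strand, and the latter stops where the GENCODE gene begins. A match describes letters only.
Ccl17: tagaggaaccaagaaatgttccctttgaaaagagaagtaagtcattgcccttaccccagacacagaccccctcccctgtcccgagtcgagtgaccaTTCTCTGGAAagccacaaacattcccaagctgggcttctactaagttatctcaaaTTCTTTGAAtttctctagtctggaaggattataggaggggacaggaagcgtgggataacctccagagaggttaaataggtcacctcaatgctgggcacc
Ccl22: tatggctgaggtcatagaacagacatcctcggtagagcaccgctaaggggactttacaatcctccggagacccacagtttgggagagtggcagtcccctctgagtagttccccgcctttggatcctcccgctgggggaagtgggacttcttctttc

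Ccl3 and Ccl4 are inflammatory ligands that attract monocytes and T cells, and Ccl3 acts on Ccr1. Ccl3 was at 164 and 129 FPKM in Control and at 94.2 and 106 FPKM in G-CSF. The groups did not overlap, and Ccl3 fell by 0.54 on the log2 scale (SE 0.11, 95% interval -0.81 to -0.27, limma, Benjamini-Hochberg adjusted p = 0.0192). Without G-CSF replicate 1 its adjusted p was 0.0565, in a range of 0.00365 to 0.0565 over the 4 fits that each left out a library. Ccl4 was at 65.5 and 48.2 FPKM in Control and at 51.7 and 49.7 FPKM in G-CSF. Only Control replicate 1 stood above the other libraries of Ccl4, the groups overlapped, and its log2 fold change was -0.15 (95% interval -0.46 to 0.16, limma, Benjamini-Hochberg adjusted p = 0.441). The direction of Ccl4 turned to 0.073 without Control replicate 1, and its adjusted p was 0.0147 without Control replicate 2, in a range of 0.0147 to 0.640.

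Ccl6 fell by 0.28 on the log2 scale (SE 0.074, 95% interval -0.46 to -0.099, limma, Benjamini-Hochberg adjusted p = 0.0393), to 82.5% of Control, and its groups did not overlap. It kept an adjusted p under 0.05 in 1 of the 4 fits that each left out a library, the one without Control replicate 2, and the range was 0.0294 to 0.159. Ccl9, a Ccr1 ligand encoded beside it, was at 162 and 167 FPKM in Control and at 175 and 151 FPKM in G-CSF. The G-CSF libraries of Ccl9 lay on either side of the Control libraries, and the log2 fold change was -0.015 (95% interval -0.19 to 0.16, limma, Benjamini-Hochberg adjusted p = 0.899). It was 0.0074 without Control replicate 2, 0.090 without G-CSF replicate 2 and -0.12 without G-CSF replicate 1, with adjusted p from 0.216 to 0.965 over the 4 fits, so Ccl9 had no settled direction. Ccl9, Ccl6, Ccl3 and Ccl4 lie with Ccl5 in the order Ccl5, Ccl9, Ccl6, Ccl3, Ccl4 between chr11:83525778 and chr11:83664683. The gene E230016K23Rik, at between 4.65 and 6.47 FPKM, runs antisense across Ccl6, and whether the counting used strand was not given in the sources used here. Of the 5 ligands in this stretch, Ccl3 and Ccl6 were lower by the adjusted p, against 11.6% of all genes tested, and the median log2 fold change of the 5 was -0.28.

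Ccl2, which draws monocytes out of bone marrow through Ccr2, was at 42.8 and 50.9 FPKM in Control and at 39.3 and 45.7 FPKM in G-CSF. The groups overlapped, and the log2 fold change was -0.14 (95% interval -0.38 to 0.11, limma, Benjamini-Hochberg adjusted p = 0.356). It was -0.26 without Control replicate 1, -0.013 without Control replicate 2, -0.031 without G-CSF replicate 1 and -0.25 without G-CSF replicate 2, with adjusted p from 0.107 to 0.942. Gm17268 is annotated antisense to Ccl2, at chr11:82028224-82038562, so the strand caveat applies there too.

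Among the CXC ligands, Cxcl16 is a membrane-bound ligand of Cxcr6 that also works as a scavenger receptor. It was at 19.1 and 14.4 FPKM in Control and at 10.6 and 9.05 FPKM in G-CSF. Both G-CSF libraries lay below both Control libraries, and Cxcl16 fell by 0.75 on the log2 scale (SE 0.14, 95% interval -1.10 to -0.41, limma, Benjamini-Hochberg adjusted p = 0.0146), to 59.5% of Control. Cxcl16 kept an adjusted p under 0.05 in each of the 4 fits that left out a library, from 0.00526 to 0.0397. Cxcl2, a neutrophil attractant acting on Cxcr2, was at 16.4 and 17.8 FPKM in Control and at 9.82 and 16.7 FPKM in G-CSF. Only G-CSF replicate 1 stood apart, and the log2 fold change of Cxcl2 was -0.41 (95% interval -0.94 to 0.12, limma, Benjamini-Hochberg adjusted p = 0.215). Without G-CSF replicate 1 it was -0.034, and without G-CSF replicate 2 it was -0.79 with an adjusted p of 0.00693, in a range of 0.00693 to 0.839. Of the distinct 75-base windows in the transcripts of Cxcl2, 101 of 2209 (4.57%) also occur in Cxcl3, so some reads of these paralogs could be assigned to either. Cxcl3, given here outside the naming rule, was at 11.9 and 20.4 FPKM in Control and at 19.2 and 25.5 FPKM in G-CSF. Its groups overlapped, and its log2 fold change was 0.50 (limma, Benjamini-Hochberg adjusted p = 0.183). No such window was shared by the other 9 ligands with another gene.

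Of the 30 other chemokine ligand genes of a list of 40, 8 were tested and 11 were listed at 0 in all 4 libraries, among them Ccl8, Ccl11, Ccl20 and Cxcl13. None of the 8 passed both thresholds, and Ppbp alone passed the adjusted p, a share of the 8 close to the 11.6% of all genes tested that were lower. Ppbp, a platelet chemokine that attracts neutrophils, was at 14.8 and 13.8 FPKM in Control and at 10.6 and 10.5 FPKM in G-CSF and fell by 0.44 on the log2 scale (limma, Benjamini-Hochberg adjusted p = 0.0101). Cxcl10, an interferon-induced T cell attractant, had a log2 fold change of -0.45 and did not pass (limma, Benjamini-Hochberg adjusted p = 0.0599). Over the 8 genes the median log2 fold change was -0.34, with 5 values below 0 and 3 above. The most abundant of them, picked out by its level outside the naming rule, was Ccl5, at 106 and 71.4 FPKM in Control and at 72.6 and 53.5 FPKM in G-CSF.

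On the receptor side, 11 of 19 chemokine receptor genes were tested, 0 passed both thresholds and 4 had an unadjusted p under 0.05 by limma, a share close to the 4669 of 11940 among all genes tested. Ccr1, Cxcr2 and Cxcr4 were lower at an adjusted p under 0.05, as were 11.6% of all genes tested, and the median log2 fold change of the 11 was -0.20. Ccr1, the receptor of Ccl3, Ccl6 and Ccl9 and the most abundant of the list, was at 149 and 146 FPKM in Control and at 126 and 131 FPKM in G-CSF and fell by 0.20 on the log2 scale (limma, Benjamini-Hochberg adjusted p = 0.0217). Cxcr2, the receptor of Cxcl2, was at 54.6 and 53.5 FPKM in Control and at 36.1 and 46.0 FPKM in G-CSF and fell by 0.41 (limma, Benjamini-Hochberg adjusted p = 0.0367). Cxcr4, which retains cells in the marrow by binding Cxcl12, fell by 0.27 (limma, Benjamini-Hochberg adjusted p = 0.0464). The Ccr4 gene, whose product binds Ccl17 and Ccl22, was low, at 1.79 and 2.38 FPKM in Control and at 1.52 and 2.48 FPKM in G-CSF, and Ccr3 and Cxcr6 stood under 0.4 FPKM in every library. The values of Ccr4, Ccr3 and Cxcr6 are given as the receptors of ligands above and were chosen outside the naming rule. None of the 4 atypical receptor genes, which code for scavengers of ligand, was tested, their sum was at most 0.172 FPKM, Ackr4 was the most abundant and Ackr2 was listed at 0.

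Proteases that shed or trim chemokines moved in both directions. Of the 12 in the list, 11 were tested, Ctsg and Prtn3 rose and Mmp9 fell past both thresholds, against 63 higher and 107 lower of 11940 genes tested, and the median log2 fold change was -0.15. By the adjusted p alone Elane was also higher and Dpp4 also lower (log2 fold changes 0.99 and -0.66, limma, Benjamini-Hochberg adjusted p = 0.00391 and 0.0402). Prtn3, a serine protease of azurophil granules, was at 273 and 224 FPKM in Control and at 691 and 637 FPKM in G-CSF and rose by 1.42 on the log2 scale (limma, Benjamini-Hochberg adjusted p = 0.00110). Ctsg, the granule protease cathepsin G, was at 111 and 101 FPKM in Control and at 241 and 261 FPKM in G-CSF and rose by 1.25 (limma, Benjamini-Hochberg adjusted p = 0.000328). Mmp9, a gelatinase that can truncate CXC ligands, was at 192.3 and 191.7 FPKM in Control and at 77.2 and 107 FPKM in G-CSF, and its log2 fold change was -1.08 (limma, Benjamini-Hochberg adjusted p = 0.00502). Adam10, a sheddase of Cxcl16 and Cx3cl1, was at 47.3 and 51.2 FPKM in Control and at 49.5 and 50.1 FPKM in G-CSF, with a log2 fold change of 0.017 (95% interval -0.11 to 0.15), a value given after it was seen.

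All 21 genes of the NF-kB members and feedback list were tested, and 0 passed both thresholds while 15 had an unadjusted p under 0.05 by limma, against 4669 of 11940 genes tested. By the adjusted p alone 10 were lower and Bcl3 was higher, against 1381 lower and 1521 higher of all 11940, with a median log2 fold change of -0.33. Relb, a subunit of the alternative NF-kB pathway, was at 26.4 and 23.3 FPKM in Control and at 16.0 and 15.6 FPKM in G-CSF and fell by 0.65 on the log2 scale (limma, Benjamini-Hochberg adjusted p = 0.00466). Nfkbie, an inhibitor induced by NF-kB itself, fell by 0.51 (limma, Benjamini-Hochberg adjusted p = 0.00615), and the adhesion gene Icam1 fell by 0.29 (limma, Benjamini-Hochberg adjusted p = 0.00949).

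In the list of STAT6 and Irf4 genes, which act in Ccl17 and Ccl22 production by cells exposed to IL-4 or GM-CSF, 13 of 14 were tested. At an adjusted p under 0.05, 8 genes were lower, against 11.6% of all genes tested, namely Stat6, Irf4, Cish, Socs1, Kdm6b, Mrc1, Egr2 and Batf3, and the median of the 13 was -0.32. Irf4, a factor in the path from GM-CSF to Ccl17 that was singled out after its values were seen, was at 31.2 and 28.2 FPKM in Control and at 21.5 and 19.5 FPKM in G-CSF and fell by 0.53 (limma, Benjamini-Hochberg adjusted p = 0.00685).

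Markers of other cell types were also listed, and those of dendritic cells were mostly lower in G-CSF. Dendritic cell markers summed to 3592 and 3052 FPKM in Control and to 1990 and 1601 FPKM in G-CSF, with Cd74, the invariant chain of MHC class II, the most abundant and none of the 13 at 0 throughout, although Clec9a, a marker of cross-presenting dendritic cells, reached at most 0.643 FPKM. Of the 12 tested, H2-Ab1, H2-Eb1 and Cd209a fell past both thresholds, 9 were lower at an adjusted p under 0.05, against 11.6% of all genes tested, and the median log2 fold change was -0.84. H2-Ab1, an MHC class II chain, was at 474 and 396 FPKM in Control and at 229 and 182 FPKM in G-CSF and its log2 fold change was -1.09 (limma, Benjamini-Hochberg adjusted p = 0.00429). The order counted ran, from highest to lowest, Control replicate 1, Control replicate 2, G-CSF replicate 1 and G-CSF replicate 2. Ccl6, Ccl17, Ccl22 and Cxcl16, or 4 of 9 ligands, held it, as did 10 of 12 dendritic cell markers and 1028 of 11940 genes tested (8.61%). It was the only order counted and is the one that Ccl17 and Ccl22 show. It can arise only where both G-CSF libraries lay below both Control libraries, as in 3891 of the 11940 genes. No marker list other than that of dendritic cells was counted for it. Genes of other lists held it too, among them the neutrophil markers S100a8, Camp and Ngp and the macrophage markers Cd68, C1qb and Fcgr1. Others of those lists, such as S100a9 and Mrc1, did not, so the order is not particular to dendritic cell markers. The part of dendritic cell abundance in the levels of these ligands was not tested.

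**Figure D3:**
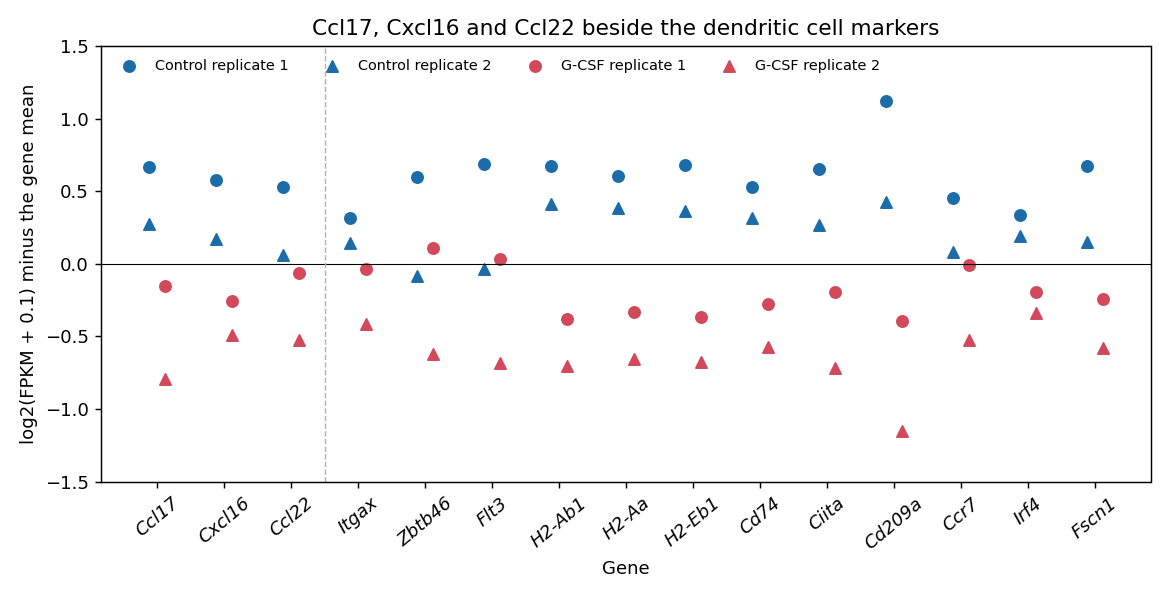
Log2(FPKM + 0.1) minus the mean of the gene over the 4 libraries, for the 3 ligands with the fold changes farthest from 0 (left of the dashed line) and the 12 dendritic cell markers tested (right), with symbols as in the plot of ligand levels. Control replicate 1 is the highest and G-CSF replicate 2 the lowest for all 3 ligands.

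The lists of further cell types follow, and their part in the ligand levels was not tested. Their counts stand against 11.6% of all genes tested that were lower by the adjusted p and 1.42% that passed both thresholds. Macrophage markers summed to 842 and 856 FPKM in Control and to 661 and 723 FPKM in G-CSF, Cd68 being the most abundant, with 8 of 11 lower at an adjusted p under 0.05 and 0 past both thresholds. Eosinophil markers summed to 556 and 658 FPKM in Control and to 365 and 330.2 FPKM in G-CSF, led by Prg2, with 3 of 6 lower by the adjusted p and Ear6 past both thresholds. Basophil and mast cell markers summed to 153 and 165 FPKM in Control and to 92.5 and 105 FPKM in G-CSF, led by Mcpt8, with 5 of 7 lower by the adjusted p and Hdc past both thresholds. Megakaryocyte and platelet markers, which include the chemokines Pf4 and Ppbp, summed to between 45.8 and 52.3 FPKM and were led by Pf4, and only Ppbp of the 6 passed the adjusted p. Lymphocyte markers summed to between 5.77 and 9.42 FPKM and were led by Cd79b, and Ncr1 was listed at 0. Of the 6 tested, 3 were lower by the adjusted p, and Cd3d and Cd8a fell past both thresholds. Both were near the floor, Cd3d at 0.57 to 1.57 FPKM and Cd8a at 0.278 to 0.774 FPKM. Neither exceeded about 31 estimated reads in any library.

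By the Euclidean distance between the 4 centred log2 values of a gene and those of each other gene tested, the genes nearest Ccl17 were Cdh17 (distance 0.076), Ciita (0.088) and 4930431P03Rik (0.088). Nearest Cxcl16 were Cd83 (0.024), Cyp2e1 (0.040) and Gbp9 (0.066), and nearest Ccl22 were Map6 (0.073), Usp18 (0.079) and Il4i1 (0.088). Cd83, a surface protein of mature dendritic cells, was at 28.8 and 21.5 FPKM in Control and at 16.1 and 13.4 FPKM in G-CSF. Ciita, the activator of MHC class II genes, was at 16.2 and 12.4 FPKM in Control and at 8.97 and 6.22 FPKM in G-CSF. Cd83 and Ciita were picked out from the nearest genes outside the naming rule, and Ciita is also on the dendritic cell list. Most of the other nearest genes were low. Cdh17 was at 0.55 to 1.74 FPKM, 4930431P03Rik at 0.154 to 0.647, Cyp2e1 at 0.461 to 1.07 and Gbp9 at 0.934 to 2.11. Usp18 was at 2.37 to 5.15 FPKM, Map6 at 4.33 to 9.05 and Il4i1 at 17.6 to 38.9. In each of the nearest genes both G-CSF libraries lay below both Control libraries, which the choice by likeness fixes.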

How the data were processed

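The authors deposited 1 table per library with an FPKM value for each of 24346 gene names. The submitters' processing notes name TopHat2 2.0.13, Bowtie2 2.2.3, SAMtools 0.1.19, Cufflinks 2.2.1 and the mm10 build, and single-end reads of 75 bases came from a stranded mRNA kit. The members and lists were chosen with earlier results of these data known. Replicates are libraries numbered 1 and 2 in the labels, called biological replicates by the study.

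Depth was estimated from steps of whole reads in low values of genes with 1 transcript, where 65.4% to 67.2% of values came out whole to within 0.05 reads (10% would by an even spread). The steps were clearest with 210 bases taken off each transcript length, and reads were estimated with that length. Transcript lengths came from GENCODE M21, with 23310 names found directly and 642 by a RefSeq synonym, and 394 not found. Genes shorter than 300 bases and small RNAs were left out. The test took genes that reached 10 estimated reads in 2 or more libraries and summed to 15 or more, which left 11940. log2(FPKM + 0.1) was fitted with limma 3.58.1 (lmFit, eBayes with trend) in R 4.3.3, 2-sided, with Benjamini-Hochberg adjustment over all genes tested. The same fit was also run on simulated libraries, with an outcome not given here. The thresholds were an adjusted p under 0.05 and a log2 fold change beyond 1 in either direction. Fold changes are on the log2(FPKM + 0.1) scale, which understates changes of low genes. Tables and figures were made in Python with matplotlib.

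Named genes were all 10 ligands, the called genes of each list or otherwise at most 3 with the smallest p, the most abundant gene of each marker list, and the 3 genes nearest each of the 3 ligands with the largest absolute fold change. Alternatives were a pseudocount of 1 FPKM, no filter, 10 reads in every library, upper-quartile scaling, a replicate block, each library left out, and the adjusted p alone. Sequences came from RefSeq (GRCm38.p6). Protein sequences were not used here, and the result of 1 called gene in the STAT6 and Irf4 list is not reported here.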

Additional observations from a re-analysis of the deposited data

How the results depend on the processing

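The count of genes past both thresholds, 170, was 56 with a pseudocount of 1 FPKM. It lay between 118 and 173 with the other filters or upper-quartile scaling. With the fold change threshold dropped, 2902 genes passed the adjusted p. The count of ligands past both thresholds was 0 in the main fit, and with the fold change threshold dropped 4 ligands passed the adjusted p. The log2 fold change of Ccl17 was -1.14 without Control replicate 2 and -1.26 without G-CSF replicate 1. The count of ligands at an adjusted p under 0.05, for which all alternatives were added after the data were seen, was 0 with no filter, where 16234 genes were tested, and between 2 and 6 without 1 library, the 2 (Ccl3 and Cxcl16) being without Control replicate 1. With no filter, 1626 of the 16234 genes tested passed the adjusted p, against 2902 of 11940 in the main fit. The cause of these shifts was not tested. Without 1 library the log2 fold change of Ccl4 ran from -0.37 to 0.073 and that of Ccl9 from -0.12 to 0.090, reversed without Control replicate 1 for Ccl4 and without Control replicate 2 or G-CSF replicate 2 for Ccl9. Where a group was left with 1 library, that library was assumed to vary like the other group. Of 81 single-ligand values under the alternatives, 63 kept their direction and side of the adjusted p, 9 lost it, 6 gained it and 3 reversed. With the replicate number as a block, 185 genes passed both thresholds. By the adjusted p alone 4014 of 11940 genes passed, against 2902 without the block, and 6 ligands were among them. Ccl22 (adjusted p = 7.34e-05 by limma) and Cxcl2 (0.0400) were the ligands added. However, the libraries share only a number, and deviations of same-numbered libraries from their group means correlated across genes at r = 0.251. With 2 libraries per group, the depth left Ccl24 untested, and intervals such as that of Cxcl2 span falls of nearly 1 on the log2 scale as well as 0.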
